A study of Homo sapiens with 6 samples.

Results

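The nuclear genes for the subunits of the respiratory chain and of ATP synthase were followed in K562 cells, a human erythroleukemia line, with and without induction of the transcription factor ERG. A probe set was taken as a member when the platform annotation gave it 1 gene symbol and that symbol named a subunit of complex I (NDUFA, NDUFB, NDUFC, NDUFS and NDUFV), complex II (SDH), complex III (UQCR and CYC1), cytochrome c (CYCS), complex IV (COX4 to COX8) or ATP synthase (ATP5F, ATP5M and ATP5P). Of 95 symbols that matched these beginnings, 78 were subunit genes, and they were read by 152 of the 54613 probe sets that were not controls. The other symbols were 12 assembly factors, 2 pseudogenes and 3 non-coding transcripts named after subunit genes, and they were left out. Probe sets that carried several symbols, such as those of NDUFS8, NDUFC2 and UQCRH, fell outside the rule, and NDUFA4, which the annotation names COXFA4, was treated as a non-member.

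The clones were 3 stable K562 pTRE-ERG transfectants named CL4, CL9 and CL46, and their RNA was hybridized to 6 Affymetrix U133 Plus 2.0 arrays, 3 ERG-induced and 3 non-induced. The induced cultures received 1 µg/ml doxycycline (DOX) for 8 days by the sample labels and the methods, while a figure legend of the study gives a shorter time. Both groups carry the same DOX-responsive ERG construct, each clone is its own transfectant, and no other treatment is named. DOX was given to all induced cultures and to none of the controls, so what ERG did and what DOX did cannot be told apart. The 4 probe sets annotated to ERG gave log2 differences of -1.35, -1.93, -0.50 and 0.72, and where they lie relative to the introduced sequence is not known, so they do not check the labels. Ribosomal RNA, read by control probe sets of the array, was higher in the induced array of each clone, by 0.87 on the log2 scale (SD 0.32, n = 3 clones). By an exact two-sided permutation test p was 0.1, which is the smallest possible with 3 arrays a group, and the part of this in the results that follow was not tested. The deposited values are linear ratios, and their median over the 6 arrays was 1 in every probe set of the members except 230501_at of NDUFA10, where it was 0.419. They hold no brightness, so levels of different genes cannot be compared, and the erythroid markers of K562 could not be checked for presence. In such bulk RNA, fewer cells of a kind and less RNA per cell cannot be told apart.

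As background, complexes I and II pass electrons from NADH and succinate to coenzyme Q, complex III passes them on to cytochrome c, and complex IV hands them to oxygen. The proton gradient that complexes I, III and IV build drives ATP synthase. Most subunits are encoded in the nucleus and are needed in fixed proportions, and their promoters often carry sites for the ETS factor GABP and for NRF1. ERG is itself a member of the ETS family. In erythroid cells, mitochondria also supply the heme of hemoglobin.

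The subunit genes differed little between the groups. Their median log2 difference, ERG-induced minus non-induced, was 0.10, against -0.03 over all 19775 genes. By clone (CL4, CL9 and CL46, in this order wherever 3 values are given), the members' median was 0.23, 0.06 and 0.03, while that of all genes was -0.04, -0.06 and -0.04. The shift was thus above the median of all genes in each clone, and it was highest in CL4. Of the 78 members, 66 (84.6%) lay within 0.5 of 0 on the log2 scale, against 52.3% of all genes. Their arrays were also closer to each other, with a median residual SD of 0.212 against 0.584 over all genes. All genes tested include genes of any level. Without brightness, a background of similar level could not be chosen, here or in the shares that follow.

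A gene was called where, as the study required, the groups differed at least 2-fold and p was under 0.05, here the unadjusted p of limma. The error given with a difference is its SE, from 3 arrays in each group. By this rule 0 members were called higher, where 3.12% of all genes were, and 3 members (3.85%) were called lower, where 6.32% of all genes were. The 3 were NDUFS4, COX6B2 and ATP5MF. After Benjamini-Hochberg adjustment over all genes, 0 members and 0 genes had a p under 0.05 in limma, while 6 members and 2544 genes did so before adjustment. The lowest adjusted p of a member was 0.190. With the clone as a block, 1 member, COX7A1, was called higher and the same 3 members were called lower, where 3.34% and 6.39% of all genes were.

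Members were higher in all clones more often than all genes were, and lower in all clones about as often. All 3 clones were higher in 30 members (38.5%), against 17.8% of all genes, and all 3 were lower in 16 (20.5%), against 22.4% of all genes. Of the 34 members with 1 probe set, 61.8% were higher in all clones, against 20.2% of all such genes. Of the 44 with more, 20.5% were higher, against 15.6%, and 27.3% were lower, against 26.5%. The 3 induced arrays lay above the 3 non-induced arrays in 15 members, where 7.98% of all genes had such separated groups, and below them in 14, where 13.6% of all genes did. The members that were higher in all clones had small differences, and COX7A1 was the only 1 of them with a fold above 2. Centring each array on its median moved the median of all genes to 0.08 and quantile normalization moved it to 0.11, and the members' median stood at 0.20 and 0.22 under these scalings. Without the probe sets that can match several transcripts, the members' median was -0.00 and that of all genes was -0.05, so the sign of the median was not fixed, while its distance to all genes stayed between 0.05 and 0.19 under every alternative run.

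**Figure D1:**
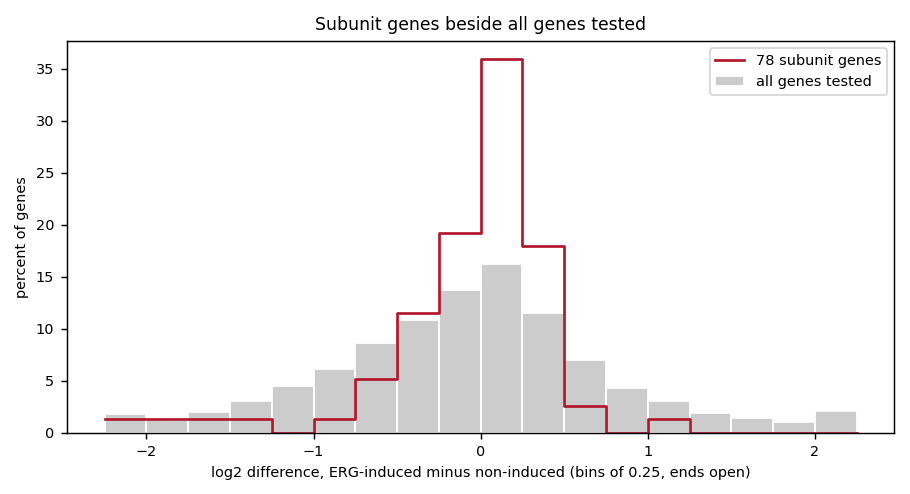
Share of genes (vertical axis, percent) in bins of the log2 difference, ERG-induced minus non-induced (horizontal axis, bins of 0.25 with open ends), for the 78 subunit genes (red line) and all genes tested (grey bars). The members crowd around 0: the bin from 0 to 0.25 holds 35.9% of the members and 16.2% of all genes.

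**Figure D2:**
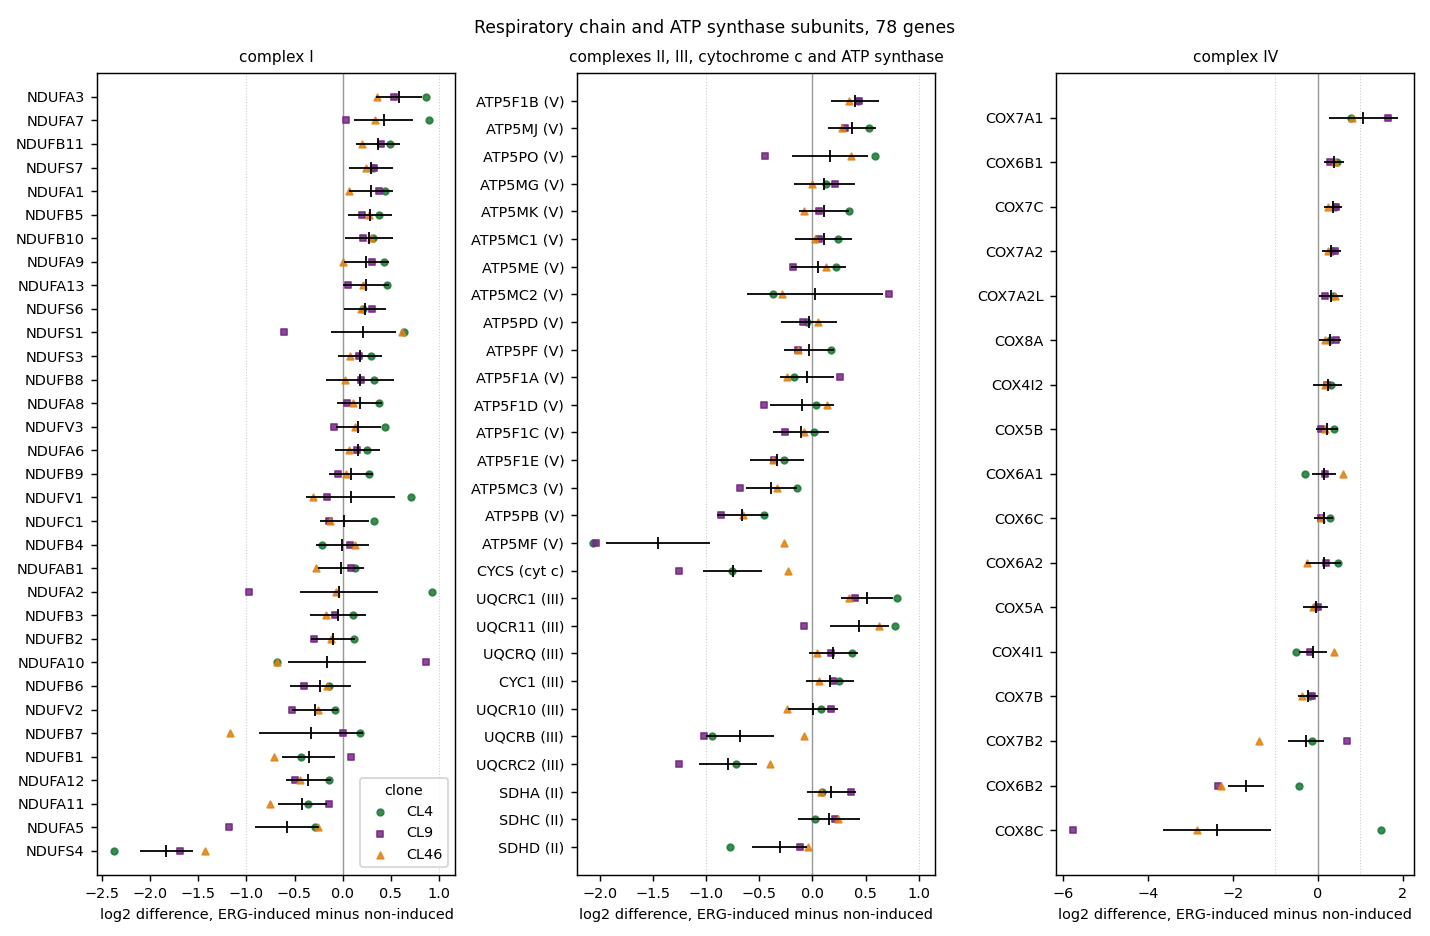
Log2 difference of each of the 78 subunit genes, ERG-induced minus non-induced, by complex (the horizontal scales differ between panels). Symbols are the differences of the 3 clones and the vertical tick is their mean. The line is the standard error (SE) of the group difference from limma, fitted without the clone as a block. Most genes lie close to 0, and NDUFS4, ATP5MF, COX6B2 and COX8C stand farthest to the left.

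Promoters of the members were read for the ETS core CCGGAAG and for the NRF1 letters GCATGCGC, on both strands. The RefSeq sequences of GRCh38.p14 were used, from 250 bases before to 50 bases after the start of a gene. Of the 78 members, 66 had a promoter sequence. The ETS letters were found in 18 of these 66 (27.3%) and in 10.7% of all 27305 promoters, and the longer CCGGAAGT, which contains them, in 9 (13.6%) against 4.44%. GCATGCGC was found in 13 (19.7%) against 3.27%, and the longer palindromic NRF1 motif that contains it in 4 (6.06%) against 1.36%. By complex, the ETS core was in 5 of 31 promoters of complex I, 1 of 2 of complex II, 2 of 5 of complex III, 5 of 14 of complex IV and 5 of 13 of ATP synthase. The median log2 difference was 0.17 in the members with the ETS core and -0.00 in the members without it, and 0.06 and 0.08 with and without GCATGCGC. The same split was not made over all genes, so these medians cannot be read as a trait of the members, and they were not tested. A match is a description of the letters and not a binding site. Of the matches that lie wholly before the start site, that nearest to it is shown with its surroundings, cut off before the start site, for the member with the highest difference among those with such a match in each complex, with capitals for the ETS core in either orientation. The windows lie at chrX:119871758-119871818 on the plus strand (NDUFA1), chr11:112086769-112086829 on the plus strand (SDHD), chr19:1605526-1605586 on the minus strand (UQCR11), chr19:35648284-35648322 on the plus strand (COX6B1) and chr10:103396602-103396662 on the minus strand (ATP5MK), each written 5′ to 3′ along its gene.
NDUFA1: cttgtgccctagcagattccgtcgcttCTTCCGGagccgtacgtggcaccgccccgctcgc
SDHD: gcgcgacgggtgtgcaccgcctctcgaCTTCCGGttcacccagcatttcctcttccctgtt
UQCR11: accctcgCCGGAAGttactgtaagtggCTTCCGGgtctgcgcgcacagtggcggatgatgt
COX6B1: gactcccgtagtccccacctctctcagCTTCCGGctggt
ATP5MK: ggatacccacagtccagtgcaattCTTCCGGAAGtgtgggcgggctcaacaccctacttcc
The window of UQCR11 holds the core in both orientations, and in that of ATP5MK both orientations overlap. Of these genes, picked for a high difference, NDUFA1 had a log2 difference of 0.29, UQCR11 of 0.44, COX6B1 of 0.38 and ATP5MK of 0.11. SDHD, the only holder in complex II, was at -0.31. Other holders of the ETS core below 0 were NDUFB7 (-0.33), COX4I1 (-0.11), ATP5PD (-0.03) and ATP5PF (-0.03).

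In complex I, the entry point for electrons of NADH, 33 genes had a median log2 difference of 0.09. The clone medians were 0.30, 0.05 and 0.03. All 3 clones were higher in 13 genes (39.4%, against 17.8% of all genes) and lower in 6 (18.2%, against 22.4%). Of the 33 genes, 0 were called higher, against 3.12% of all genes, and 1 (3.03%), NDUFS4, was called lower, against 6.32%. The 5 measured core subunits belong to the peripheral arm, which holds the flavin and iron-sulfur centres, and had a median of 0.18. Among them, NDUFS7 differed by 0.31, 0.32 and 0.24, a mean of 0.29 (SE 0.23, adjusted p = 0.657 in limma). NDUFS3 was also higher in all clones, with a mean of 0.18 (SE 0.23). NDUFV2 was lower in all clones, at -0.29 (SE 0.24). The flavin-binding subunit NDUFV1 was at 0.71, -0.16 and -0.30. NDUFS1, the largest subunit of the arm, was at 0.64, -0.61 and 0.61. Both gene means depended on the clone, but the probe sets of each gene went apart. In NDUFV1, 208714_at was higher in all clones, at 0.30, 0.10 and 0.19, while 227795_at was at 1.11, -0.42 and -0.80. In NDUFS1, 203039_s_at was lower in all clones, at -0.08, -0.42 and -0.31. The other probe sets of NDUFS1 were mixed over the clones, and 239268_at had the highest mean, at 1.29. As gene means, the core subunits thus held no direction in common.

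The 28 accessory subunits of complex I, which stabilise the core, had a median of 0.05 and ran from -1.83 to 0.59. NDUFS4, an accessory subunit at the junction of the electron-input modules whose loss causes a mitochondrial disease, was the lowest. Its mean log2 ratio over 2 probe sets was 0.89, 0.65 and 0.44 in the non-induced arrays and -1.49, -1.03 and -0.99 in the induced arrays. The groups did not overlap, and the fall was 3.55-fold (log2 difference -1.83, SE 0.27, adjusted p = 0.190 in limma). The call held with each clone left out in turn. Its 2 probe sets went apart, however. Probe set 1555057_at read 1.89, 1.41 and 0.80 in the non-induced arrays and -3.13, -1.97 and -2.17 in the induced arrays, a difference of -3.79 (SE 0.47). Probe set 209303_at read -0.11, -0.10 and 0.08 against 0.16, -0.09 and 0.19, a difference of 0.13 (SE 0.26). The call of NDUFS4 therefore rests on 1 of its 2 probe sets.

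At the other end of complex I stood NDUFA3, a small accessory subunit with 1 probe set. It read -0.61, -0.34 and -0.19 in the non-induced arrays and 0.26, 0.20 and 0.17 in the induced arrays. All induced arrays lay above all non-induced arrays, and the difference was 0.59 (SE 0.24), short of both thresholds. NDUFB11 (0.36, SE 0.23) and NDUFS6 (0.23, SE 0.22) had separated groups too, and NDUFA7 (0.42, SE 0.30) and NDUFB10 (0.27, SE 0.24) were higher in all clones with overlapping groups. On the low side, NDUFA5 (-0.58, SE 0.33), NDUFA11 (-0.42, SE 0.25) and NDUFA12 (-0.36, SE 0.23) were lower in all clones with separated groups and did not reach a fold of 2. The value of NDUFA11 is a mean of 228689_at at -1.67 and of probe sets at 0.19 and 0.23. In NDUFA5, 201304_at was lower in all clones, while 215850_s_at was at 0.28, -1.95 and 0.32. As gene means, the groups were thus separated by less than 2-fold in either direction within the same complex.

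Complex II, succinate dehydrogenase, also belongs to the citric acid cycle, and 3 of its genes were measured as members. SDHA, the flavoprotein subunit, differed by 0.09, 0.36 and 0.08, a mean of 0.18 (SE 0.23). SDHC, a membrane anchor, differed by 0.03, 0.21 and 0.24, a mean of 0.16 (SE 0.29), over 7 probe sets that ran from -0.96 to 0.66. SDHD, the other anchor, was lower in all clones, by -0.78, -0.11 and -0.04, a mean of -0.31 (SE 0.26, adjusted p = 0.677 in limma). The 2 anchors thus had means on opposite sides of 0, and neither was called or had a p under 0.05 in limma before adjustment. Without the probe sets that can match several transcripts, SDHC was at -0.03.

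In complex III, the cytochrome bc1 complex, the 7 genes had a median of 0.17. In all clones 3 were higher (42.9%, against 17.8% of all genes) and 2 lower (28.6%, against 22.4%). Of the 7, 0 were called, where 3.12% of all genes were called higher and 6.32% lower. The 2 core proteins of the complex differed most from each other. UQCRC1 read -0.60, -0.24 and -0.18 in the non-induced arrays and 0.20, 0.16 and 0.16 in the induced arrays, a difference of 0.51 (SE 0.24, 1.43-fold, adjusted p = 0.444 in limma). UQCRC2 read 0.20, 0.46 and 0.26 in the non-induced arrays and -0.52, -0.79 and -0.14 in the induced arrays, a difference of -0.79 (SE 0.27, 1.73-fold, adjusted p = 0.331 in limma). As gene means, neither had overlapping groups, and they stood on opposite sides of 0 in every clone. The low value of UQCRC2 came mostly from 1 of its 3 probe sets, 241755_at at -1.96. Its other probe sets lay between -0.27 and -0.15. In CL4 these were at 0.04 and 0.12, on the same side of 0 as UQCRC1. UQCRB, which helps to bind coenzyme Q, was likewise at -0.68 (SE 0.32) over 4 probe sets, of which 244293_at was at -2.45 and the others between -0.14 and -0.07. CYC1, the heme subunit cytochrome c1, was higher in all clones by 0.25, 0.19 and 0.06, a mean of 0.17 (SE 0.22), with separated groups. UQCR11 was at 0.44 (SE 0.28), with values of 0.78, -0.08 and 0.63, and UQCRQ at 0.20 (SE 0.23).

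CYCS, cytochrome c, carries electrons between complexes III and IV and triggers the caspase cascade when it leaves the mitochondrion. It read 0.37, 0.57 and 0.10 in the non-induced arrays and -0.38, -0.69 and -0.13 in the induced arrays. All induced arrays lay below all non-induced arrays, and the difference was -0.75 (SE 0.28, 1.68-fold, adjusted p = 0.352 in limma). All 3 of its probe sets had a mean below 0, at -0.40, -0.70 and -1.14, and of these 229415_at was called lower. Without CL46 the difference was -1.01 and the gene was called lower.

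In complex IV, cytochrome c oxidase, most of the common subunits had small positive differences. Of 11 such subunits, 7 (63.6%) were higher in all clones, against 17.8% of all genes. COX7B alone (9.09%) was lower in all clones, against 22.4% of all genes. The median of the 11 was 0.21, and their clone medians were 0.29, 0.16 and 0.23. In COX7B, probe set 202110_at was at 0.10, 0.24 and 0.04, while 239252_at was at -0.44, -0.49 and -0.76. COX6B1, which bridges the monomers of the enzyme, read -0.38, -0.07 and -0.14 in the non-induced arrays and 0.06, 0.23 and 0.28 in the induced arrays, a difference of 0.38 (SE 0.24). COX7C (0.36, SE 0.22) and COX7A2 (0.32, SE 0.22) also had separated groups. COX7A2L, which takes part in forming supercomplexes, was at 0.31 (SE 0.28), COX8A at 0.29 (SE 0.26), COX5B at 0.21 (SE 0.26) and COX6C at 0.14 (SE 0.22), each higher in all clones with overlapping groups. None of the 11 common subunits was called, none had a p under 0.05 in limma before adjustment, and the lowest adjusted p among them was 0.562. COX4I1, the regulatory subunit that binds ATP, was at -0.52, -0.19 and 0.38 (mean -0.11, SE 0.33) over 4 probe sets that ran from -0.77 to 0.45. Quantile normalization turned its sign, to 0.09. NDUFA4, listed as COXFA4 and now counted with complex IV, was at 0.27 (SE 0.22) and higher in all clones.

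The tissue isoforms of complex IV, which replace a common subunit in muscle, lung or testis, varied more than any other group of members described here. The 6 isoforms ran from -2.38 to 1.08, with a median residual SD of 0.547 against 0.212 in the common subunits. Each was read by 1 probe set, and the ratios do not show whether these isoforms were expressed above background in the cells. COX6B2, the testis form of COX6B1, read 0.21, 1.12 and 1.22 in the non-induced arrays and -0.24, -1.23 and -1.06 in the induced arrays. The groups did not overlap, and the value fell 3.24-fold (log2 difference -1.69, SE 0.43, adjusted p = 0.243 in limma). The clone differences were -0.45, -2.35 and -2.28, so that the call was lost without CL9 (-1.36) and without CL46 (-1.40). Its partner COX6B1 stood on the other side of 0, as given above.

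COX7A1, the heart and muscle form of COX7A2, read 0.90, -1.72 and -0.74 in the non-induced arrays and 1.68, -0.07 and 0.06 in the induced arrays. It was higher in each clone, by 0.78, 1.66 and 0.80, but the clones differed more from each other than the groups did. The mean was 1.08 (SE 0.82, 2.11-fold, adjusted p = 0.642 in limma), and with the clone as a block the gene was called higher (adjusted p = 0.366). COX8C, the testis form of COX8A, read -0.92, 3.15 and 1.83 in the non-induced arrays and 0.56, -2.62 and -1.03 in the induced arrays. CL4 went up and the other clones went down, so that the mean of -2.38 (SE 1.27) was not called. Without CL4 it was -4.31 and was called lower. COX4I2 (0.23, SE 0.35), COX6A2 (0.14, SE 0.42) and COX7B2 (-0.28, SE 0.43) differed by less than their SE, and so did their partners COX4I1, COX6A1 (0.15, SE 0.28) and COX7B (-0.22, SE 0.23). COXFA4L2, the isoform long known as NDUFA4L2, which responds to hypoxia, was at -1.49 (SE 0.87) and was not called.

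ATP synthase was the only complex whose median lay below 0. Its 17 genes had a median of -0.03, with clone medians of 0.03, -0.14 and -0.08. In all clones 3 genes were higher (17.6%, against 17.8% of all genes) and 4 lower (23.5%, against 22.4%). The sign of the median of the 17 genes followed the scaling, with 0.07 after centring and 0.11 after quantile normalization, both close to the median of all genes at the same setting. The sign also depended on which probe sets were used, as given in the last section. The 5 subunits of the F1 head and central stalk had a median of -0.10 and ran from -0.33 to 0.40. The 4 of them below 0 each had probe sets on both sides of 0. ATP5F1E had 0.24 against -0.91, ATP5F1A 0.26 against -0.36 and ATP5F1D 0.24 against -0.43. In ATP5F1C, 214132_at was at -0.88 and the other probe sets lay between 0.14 and 0.16. The catalytic subunit ATP5F1B stood highest, with -0.31, -0.13 and -0.14 in the non-induced arrays and 0.12, 0.30 and 0.20 in the induced arrays. Its groups were separated, and the difference was 0.40 (SE 0.22, 1.32-fold, adjusted p = 0.519 in limma). The medians were -0.03 over 4 subunits of the peripheral stalk, 0.02 over the 3 genes of the c-ring and 0.11 over 5 other membrane subunits.

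ATP5PB, the b subunit of the peripheral stalk, read 0.37, 0.38 and 0.23 in the non-induced arrays and -0.09, -0.48 and -0.42 in the induced arrays, a difference of -0.66 (SE 0.24, 1.58-fold, adjusted p = 0.349 in limma). Its groups were separated, at less than a fold of 2. ATP5MJ, a small membrane subunit, was higher in all clones, at 0.37 (SE 0.22). ATP5MF, the f subunit of the membrane part, read 1.43, 1.79 and 0.13 in the non-induced arrays and -0.64, -0.24 and -0.14 in the induced arrays. The groups did not overlap, and the value fell 2.74-fold (log2 difference -1.46, SE 0.49, adjusted p = 0.323 in limma). It rests on 1 probe set, 1558179_at, which was not designed on a RefSeq mRNA, and no other could be set beside it. The clone differences were -2.06, -2.04 and -0.27, so that CL46 hardly took part. The call was lost without CL4 (-1.15), without CL9 (-1.17) and without moderation of the variances.

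**Figure D3:**
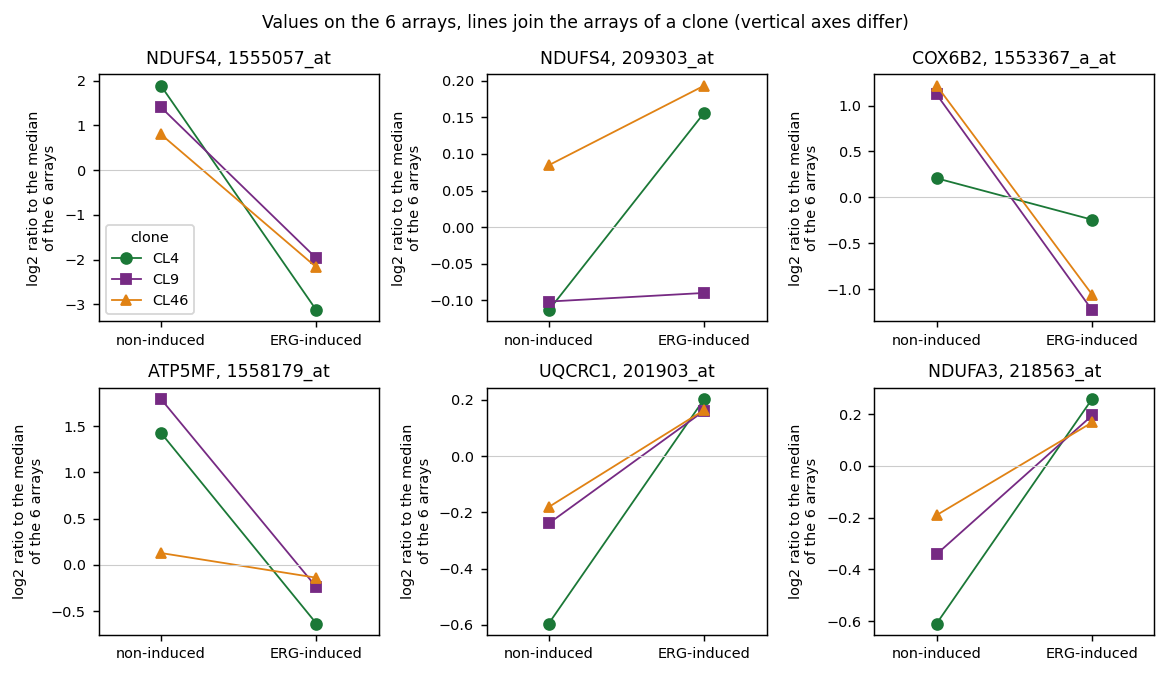
Log2 ratio to the median of the 6 arrays (vertical axes, which differ) for 6 probe sets of NDUFS4, COX6B2, ATP5MF, UQCRC1 and NDUFA3 in the non-induced and ERG-induced arrays. Each line joins the 2 arrays of a clone: both probe sets of NDUFS4 are drawn, with 1555057_at at -3.79 and 209303_at at 0.13.

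The calls were next read by probe set. Of the 152 probe sets of the members, 0 were called higher, where 2.82% of all probe sets were, and 9 (5.92%) were called lower, where 8.16% of all probe sets were. The 9 lay in 9 genes. They were 1555057_at of NDUFS4 (-3.79), 227206_at of NDUFA10 (-3.35), 244293_at of UQCRB (-2.45), 241755_at of UQCRC2 (-1.96), 1553367_a_at of COX6B2 (-1.69), 228689_at of NDUFA11 (-1.67), 1558179_at of ATP5MF (-1.46), 228168_at of ATP5MC3 (-1.35) and 229415_at of CYCS (-1.14). COX6B2 and ATP5MF have no other probe set, and in 6 of the 9 genes the gene itself was not called. NDUFA10, an accessory subunit of complex I, showed the widest spread: 227206_at read 2.29, 0.28 and 2.09 in the non-induced arrays and -0.35, -2.52 and -2.52 in the induced arrays, while its other 4 probe sets had means from 0.31 to 1.23. The mean of the gene was -0.17 (SE 0.40), and the median over its probe sets was 0.24. In ATP5MC3, a c-ring gene, the other 2 probe sets were at 0.10 and 0.09, and in NDUFA11 they were at 0.23 and 0.19.

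Of the 44 members with 2 or more probe sets, 27 had probe sets on both sides of 0, 20 had a range under 0.5 and 15 had a range over 1. As a description made after the values were seen, the probe sets were split by the accession they were designed on. Those designed on a RefSeq mRNA numbered 62, with a median of 0.18, and 64.5% of them were higher in all clones, against 21.2% of all such probe sets with 1 symbol. The other 90 had a median of 0.06, and 32.2% of them were higher in all clones, against 16.1%. Of the 9 called probe sets, 1, that of COX6B2, was designed on a RefSeq mRNA (1.61% of such probe sets of the members, against 6.29% of all such probe sets with 1 symbol). The other 8 made up 8.89% of the members' remaining probe sets, close to the 8.65% called lower among all of that kind. When RefSeq mRNA probe sets alone were used, 39 of the 59 members that have one (66.1%) were higher in all clones, against 21.2% of all genes. By the same choice 6 (10.2%) were lower, against 22.7%. The 34 members with 1 probe set had a median of 0.18, against 0.04 for all genes of that kind, and the 44 with more had a median of -0.03, against -0.08. Which transcripts the outlying probe sets read was not tested.

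**Figure D4:**
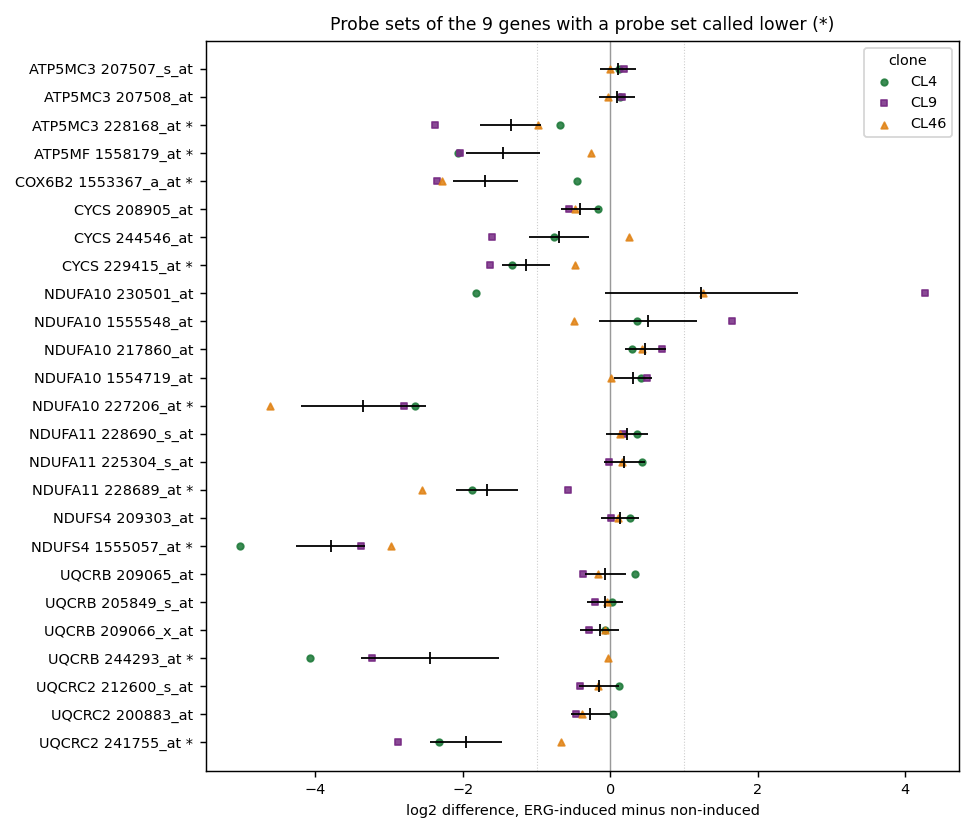
Log2 difference, ERG-induced minus non-induced, of every probe set of the 9 genes that hold a probe set called lower (asterisk). Symbols are the differences of the 3 clones and the tick is their mean. The line is the SE of the group difference from limma, fitted without the clone as a block. In NDUFS4, NDUFA10, NDUFA11, UQCRB, UQCRC2 and ATP5MC3 the marked probe set lies apart from the others, which have means from -0.27 to 1.23.

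Genes that build or surround the chain were taken from 8 further lists. Over all genes tested, 3.12% were called higher and 6.32% lower. No list was tested against these shares, so the calls below are not a result about the lists. Of 14 assembly factors of complex I, 0 were called, with a median of -0.24. Of 13 assembly factors of complexes II, III and V, 2 were called lower and 0 higher. LYRM7, which matures the iron-sulfur protein of complex III, was at -2.23 (SE 0.41, 4.69-fold, adjusted p = 0.192 in limma), with all 4 of its probe sets called lower, from -2.54 to -1.49. TMEM70, which aids the assembly of ATP synthase, was at -1.08 (SE 0.33), and lost its call without CL9 (-1.20) or CL46 (-0.78) and under either array scaling. With the median over its probe sets it was at -0.59, and not called. Of 22 assembly factors of complex IV, 2 were called higher and 1 lower. LRPPRC, which stabilises mitochondrial mRNA, was at -1.28 (SE 0.33), and its call was lost without CL9 (-1.12). TACO1, a translational activator of COX1, was at 1.39 (SE 0.45), and COX18, which inserts a COX2 domain into the membrane, at 1.35 (SE 0.55). In both, 1 of 2 probe sets carried the difference (2.60 against 0.18 and 2.61 against 0.10), and the calls were lost without CL4 (1.32 and 0.84) or CL9 (1.01 and 1.54).

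Of the 13 subunits encoded by mitochondrial DNA, 7 were measured with 1 symbol, and 1, ND6, was called higher, at 1.48 (SE 0.45). The other 6 lay between -0.32 and 0.30. ND6 lost its call without CL4 (1.46) or CL9 (1.12). Of 17 regulators of mitochondrial biogenesis, 0 were called higher and 1 lower. This was GABPA, the DNA-binding subunit of GABP, at -1.09 (SE 0.33, adjusted p = 0.295 in limma), which read 0.75, 0.07 and 0.80 in the non-induced arrays and -0.21, -0.88 and -0.58 in the induced arrays. Its groups did not overlap, but its call was lost without CL4 (-1.16) or CL46 (-0.95) and under either array scaling. TFAM, which packs and transcribes mitochondrial DNA, was at -0.88 (SE 0.32) and was not called. Without CL4 it was at -1.25 and was called lower.

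Of 16 measured genes of the citric acid cycle and pyruvate dehydrogenase, 1 was called lower and 0 higher. It was DLD, the shared dihydrolipoyl dehydrogenase, at -1.17 (SE 0.28, adjusted p = 0.230 in limma), with -1.08, -1.39 and -1.06 in the 3 clones. Of 17 genes for the ATP synthase inhibitor, carriers and coenzyme Q synthesis, 1 was called higher, COQ8A at 1.58 (SE 0.33), of whose 2 probe sets 222542_x_at was at 2.98 and 218168_s_at at 0.17. Of 20 genes for uncouplers, stress proteins and mitochondrial shape, 3 were called lower and 0 higher. OPA1, which fuses the inner membrane, was at -1.60 (SE 0.48) and lost its call without CL4 (-1.52) or CL46 (-1.20). Of its 4 probe sets, 3 were called lower (-1.58, -1.51 and -2.07), each lower in all clones. The other, 241027_at, was at -3.94, 4.94 and -4.76 in the clones. DNM1L, which divides mitochondria, was at -1.19 (SE 0.37) and lost its call with the clone as a block and without CL9 (-0.72) or CL46 (-1.29). HSPD1, the mitochondrial chaperonin, was at -1.04 (SE 0.25), lost its call without CL46 (-0.99), and had 1 of 5 probe sets, at -2.64, called lower. With the median over its probe sets it was at -0.75, and with RefSeq mRNA probe sets alone at -0.40, and in neither case was it called.

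**Figure D5:**
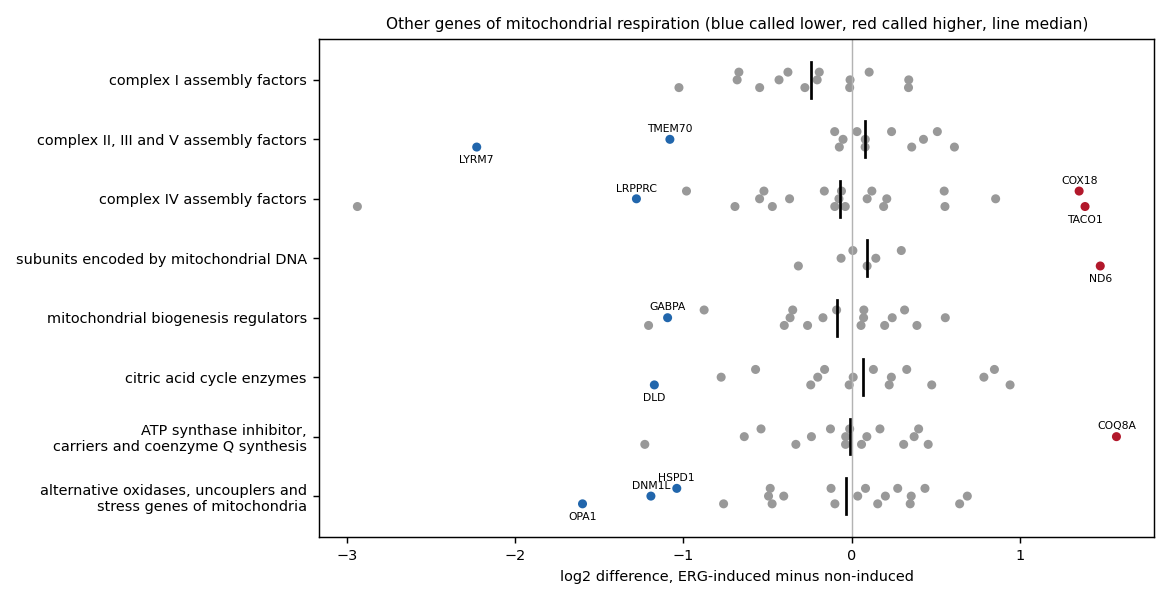
Log2 difference, ERG-induced minus non-induced, of the genes of the 8 further lists. Each point is a gene, grey where not called, blue where called lower and red where called higher, and the black line is the median of the list. Among the called genes, LYRM7 at -2.23 is the lowest and COQ8A at 1.58 the highest.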

How the data were processed

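The authors hybridized total RNA of each culture to Affymetrix U133 Plus 2.0 arrays and processed them with GeneSpring. The deposited values are linear ratios, and of 54675 probe sets, 50737 had a median of 1 (tolerance 1e-05) over the 6 arrays and 3938 a lower one. The ratios ran from 0.00357 to 154, with array medians from 0.898 to 1.07. How arrays were scaled and background was corrected before that division is unknown, since the sources used here do not say. Signal over background is unknown, and the number of arrays limits the precision.

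Control probe sets (62) were left out of the fits. All ratios were above 0, so their log2 was taken without a floor and averaged over the probe sets with 1 symbol (41091, against 1801 with several and 11721 with none) of each of 19775 genes. The comparison used lmFit and eBayes of limma (version 3.58.1, under R 4.3.3, tables read with the package data.table), two-sided, without an intensity trend or a block, with Benjamini-Hochberg adjustment over the whole table of genes or of probe sets. The fit was tested on simulated data. Replicates are clones, with 1 array per clone and condition. The clone number pairs the arrays through the shared clone, and after subtraction of the group means the arrays of a clone correlated at 0.04, 0.05 and 0.03 across genes. Value columns of no mapped sample numbered 0. Promoters were read with Python 3.11.15 and pandas 2.3.3 from RefSeq sequences of GRCh38.p14, matched by gene ID.

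Genes were named by a rule: members called at the thresholds of the study, the highest and lowest member of each complex, the complex IV isoforms with their partners, the SDH genes, CYC1, CYCS, members with a called probe set, ERG, and up to 3 called genes of each further list. Other members named with values were chosen after their values were seen. The members and all lists were chosen with earlier results of these data known. Alternatives were the clone as a block, 2 other array scalings, no moderation of variances, an intensity trend, other choices of probe sets, other thresholds and leaving out each clone. The use of RefSeq mRNA probe sets alone was added after seeing the data.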

Additional observations from a re-analysis of the deposited data

How the results depend on the processing

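With the clone as a replicate block, 1 member was called higher (COX7A1, 1.08) and 3 lower, where 3.34% and 6.39% of all genes were. DNM1L (-1.19) then lost its call, and the block changed no other call of a gene named here. The 3 calls of members fell to 0 at an adjusted p under 0.05, where 0 genes were called. They fell to 2 without moderation of the variances (4.75% of all genes called lower) and to 1 of 59 with RefSeq mRNA probe sets alone (6.47%). They rose to 6 at a fold of 1.5, where the share of all genes was not taken. Without the probe sets that can match several transcripts they rose to 6 of 66, where 6.84% of all genes were called lower. The added members were then NDUFA11 at -1.67, UQCRB at -1.26 and UQCRC2 at -1.11. Leaving out a clone gave 1 to 3, where 5.08% to 6.6% of all genes were called lower. Members lower in all clones numbered 6 of 59 (10.2%, against 22.7% of all genes) with RefSeq mRNA probe sets alone. They numbered 18 of 66 (27.3%, against 22.7% of all genes) without the multiple-match probe sets. Members higher in all clones ran from 21 of 66 (31.8%, against 16.4% of all genes) without the multiple-match probe sets to 39 of 59 (66.1%, against 21.2%) with RefSeq mRNA probe sets alone. The members' median was 0.22 after quantile normalization. Centring and quantile normalization moved the median of complex II to 0.26 and 0.30, of complex IV to 0.26 and 0.31 and of ATP synthase to 0.074 and 0.11, and quantile normalization that of complex III to 0.31. Without the multiple-match probe sets complex II stood at -0.17 and ATP synthase at -0.24, and with RefSeq mRNA probe sets alone complex IV stood at 0.29 and ATP synthase at 0.14. Leaving out a clone gave 0.02 to 0.13 for the members, 0.02 to 0.17 for complex I, 0.09 to 0.22 for complex II, 0.11 to 0.22 for complex III, 0.12 to 0.26 for complex IV and -0.03 to 0.02 for ATP synthase.

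Signs turned for genes that were not called. COX4I1 was at 0.086 after quantile normalization, 0.12 as the median over probe sets and 0.36 with RefSeq mRNA probe sets. NDUFA10 was at 0.24 and 0.48 under the same 2 choices of probe sets, ATP5MC3 at 0.066 and 0.10 under those choices, and NDUFA11 at 0.094 as the median. RefSeq mRNA probe sets alone put COX7B at 0.13 and NDUFS1 at -0.27. Without the multiple-match probe sets SDHC was at -0.028 and ATP5MG at -0.19. Leaving out a clone gave -0.35 to 0.10 for COX4I1, -0.68 to 0.092 for NDUFA10, -0.025 to 0.34 for COX6A2, -0.23 to 0.27 for NDUFV1, -0.070 to 0.38 for COX6A1 and -0.76 to 0.28 for COX7B2. TMEM70, GABPA and HSPD1 were at -0.98, -0.99 and -0.94 after centring and at -0.90, -0.90 and -0.92 after quantile normalization, below a fold of 2. RefSeq mRNA probe sets alone ended the calls of TACO1 (0.18), COQ8A (0.17), HSPD1 (-0.40), TMEM70 (-0.59) and DNM1L (-0.97), and the median over probe sets those of HSPD1 (-0.75) and TMEM70 (-0.59). Over all named genes and alternatives, 654 values kept direction and call, 38 lost the call, 7 gained it and 19 turned in sign. The cause was not tested. With 3 arrays a group and no brightness in the ratios, dim and bright probe sets could not be told apart.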
